A study of Homo sapiens with 9 samples.

Results

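Mezigdomide was compared with iberdomide in MOLM13, an established line of human acute myeloid leukaemia that carries a KMT2A rearrangement and an internal tandem duplication of FLT3. Both drug groups had 72 h of exposure in medium with fetal bovine serum: 3 libraries with 1 µM iberdomide (CC-220) and 3 with 50 nM mezigdomide (CC-92480), which are 6 of the 9 libraries of the study. The other 3 libraries received the solvent DMSO for the same time and are the reference of both drugs. Genes were members when both deposited drug tables gave them an adjusted p-value, which held for 19497 of 59699 rows. The iberdomide dose was 20 times the mezigdomide dose, so a difference between these groups is one between 2 treatments, and compound and dose cannot be told apart. All libraries come from 1 cell line, and whether the libraries of a group were separate cultures is not stated, so the p-values measure a spread between libraries that may be technical.

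Iberdomide and mezigdomide belong to the cereblon modulators. They bind cereblon, the substrate receptor of a cullin-RING ubiquitin ligase, and turn its surface towards zinc-finger proteins such as IKZF1 and IKZF3, which are then marked for the proteasome. Both molecules carry a glutarimide ring, which sits in the cereblon pocket, on an isoindolinone that bears a benzyl ether. The arm beyond the benzyl ether ends in a morpholine in iberdomide and in an aryl-substituted piperazine in mezigdomide. Several of the genes described here answer to sterols. The liver X receptors NR1H2 and NR1H3 are nuclear receptors for oxidised cholesterol that pair with a retinoid X receptor and switch on cholesterol export (ABCA1), fatty acid synthesis (SREBF1) and the ubiquitin ligase MYLIP. SREBF2, a relative of SREBF1, drives the enzymes of cholesterol synthesis when sterols are scarce.

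The deposited tables hold comparisons with DMSO and no value for single libraries. For each gene the difference between the drugs, called the log2 difference below, is the log2 fold change over DMSO of mezigdomide minus that of iberdomide, so that the DMSO level cancels and a negative value means a lower transcript with mezigdomide. The deposited fold changes are shrunk towards 0. To show the levels themselves, the mean of each group in normalised counts was rebuilt from the deposited mean, fold changes and standard errors. These rebuilt means are not shrunk, so their ratios can be larger than the shrunken log2 differences imply, and the spread of the libraries enters only through the standard errors (SE). Whether single libraries of the drug groups overlap cannot be seen. The rebuilt means are estimates that came out below 0 for 8 genes, so values of a few normalised counts are approximate. The identity of the line was checked with its markers: the myeloid genes CD33, SPI1, MPO, LYZ, FLT3, CD4 and CSF1R had means of 2535 to 23353 normalised counts, the T and B cell genes CD3E and MS4A1 had 0.104 and 0.242, and the erythroid and platelet genes HBB, HBG1 and PF4 stood at 0. The monocyte marker CD14 was low, with a mean of 40.1. The depth recovered from the lowest means was about 20900000 to 25300000 counted reads per library.

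Few genes separated the drugs. With the errors of both contrasts summed, which is an upper limit for the error because the DMSO libraries are common to both, 21 of 19497 genes (0.108%) had a Benjamini-Hochberg adjusted p under 0.05, the threshold used throughout. Of these, 9 were higher with mezigdomide (0.0462% of the genes tested) and 12 were lower (0.0615%). All 21 are protein coding. With summed errors 290 genes had an unadjusted p under 0.05, and 908 had one with the shared DMSO error removed. Both counts are smaller than a share of 0.05 of the genes, which exact errors would give with no gene differing. When the error of the shared DMSO libraries was removed gene by gene, in a test called the shared-control test below, 125 genes passed (0.641%), 85 higher with mezigdomide (0.436%) and 40 lower (0.205%), and these include all 21. Across all genes tested the median log2 difference was -0.0011, with a 1st percentile of -0.38 and a 99th of 0.44. In the 10919 genes whose mean was 100 normalised counts or more, the median SE of the log2 difference was 0.15 with summed errors and 0.106 in the shared-control test. Genes rich in G and C tended towards lower values with mezigdomide (Spearman rho of the difference statistic with GC content -0.183 over 19210 genes, a description across genes that are not independent). Genes with longer transcripts tended towards higher values (Spearman rho with length 0.206 over the same genes). The median GC content was 59.6% in the 40 genes lower with mezigdomide in the shared-control test, 47.3% in the 85 higher and 48.2% over the genes tested.

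**Figure D1:**
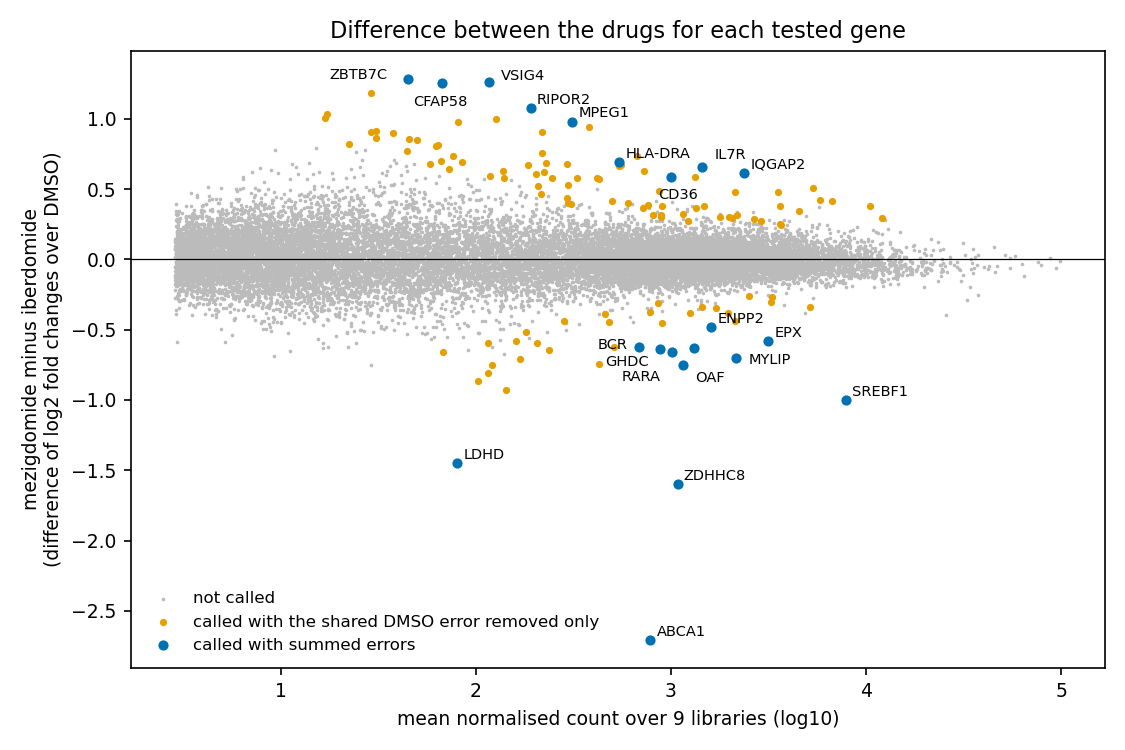
Log2 difference between the drugs (mezigdomide minus iberdomide, vertical axis) against the mean normalised count over 9 libraries (log10, horizontal axis), 1 point per tested gene. The 21 genes that passed with summed errors are blue (20 are named), those that passed only in the shared-control test are orange, and ABCA1 (-2.71), ZDHHC8 (-1.60) and LDHD (-1.45) lie farthest below 0.

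The largest log2 difference and the smallest p both fell on genes of sterol and lipid handling. ABCA1, the membrane pump that loads cholesterol onto apolipoproteins (chr9:104781002-104928237, minus strand, GRCh38), had rebuilt means of 106 normalised counts with DMSO, 2028 with iberdomide and 218 with mezigdomide. Its transcript was thus 9.3-fold as high with iberdomide as with mezigdomide in rebuilt means. In the authors' deposited tables it was above DMSO under each drug, with log2 fold changes of 3.50 (SE 0.18) for iberdomide and 0.80 (SE 0.18) for mezigdomide. The log2 difference was -2.71 (SE 0.26, 95% interval -3.21 to -2.21, adjusted p = 2.77e-22). The 250 bases before the ABCA1 start, from RefSeq on GRCh38.p14 (chr9:104928156-104928405, minus strand), are printed here because this gene carries the largest log2 difference in size and its promoter is the textbook docking place of liver X receptors. Capitals mark 16 bases, 69 to 54 before the start, that hold a direct repeat of receptor half-sites when read on the other strand (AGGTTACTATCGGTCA).
ABCA1 promoter: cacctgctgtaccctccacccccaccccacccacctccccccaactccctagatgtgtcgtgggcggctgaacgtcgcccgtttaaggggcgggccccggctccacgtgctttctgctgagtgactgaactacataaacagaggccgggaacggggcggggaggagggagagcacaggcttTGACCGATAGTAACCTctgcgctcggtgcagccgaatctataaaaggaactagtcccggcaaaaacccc

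This element was searched on both strands in the 250 bases before each RefSeq gene start. The letters AGGTNANNNNNGGTCA, written from the ABCA1 element itself, occur in 28 of 35116 windows (0.0797%). Windows were given for 7 of the 12 genes lower with mezigdomide, and of these only ABCA1 holds the letters. The consensus repeat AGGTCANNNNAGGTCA occurs in 5 windows (0.0142%), none of them of the 7 lower or 7 higher genes with a window. The other 5 lower and 2 higher genes were not searched. A match is a description of the sequence, and no match says only that these letters are not in the window.

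SREBF1, the transcription factor of fatty acid synthesis (chr17:17810399-17837002), changed in opposite directions. Its rebuilt mean was 7327 normalised counts with DMSO, 10858 with iberdomide and 5369.8 with mezigdomide. In the authors' deposited tables it rose with iberdomide (log2 0.56, SE 0.058, adjusted p = 8.47e-20) and fell with mezigdomide (log2 -0.44, SE 0.059, adjusted p = 2.28e-12). Its log2 difference of -0.999 (SE 0.083, interval -1.16 to -0.84) had the smallest adjusted p of all genes, 2.71e-29 with summed errors. MYLIP, a sterol-induced ubiquitin ligase (chr6:16129125-16148248), behaved in the same way, with rebuilt means of 2092, 2703 and 1641 for DMSO, iberdomide and mezigdomide. Its contrasts in the authors' deposited tables were 0.36 (adjusted p = 8.01e-05) and -0.34 (adjusted p = 0.000205), and the log2 difference was -0.70 (interval -0.92 to -0.48, adjusted p = 1.59e-06). SREBF1 and MYLIP were the only 2 of the 21 genes whose contrasts with DMSO both passed with opposite signs, and no other gene among the 125 of the shared-control test did so.

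RARA, the retinoic acid receptor alpha of myeloid differentiation (chr17:40309192-40357643), had rebuilt means of 1009.6, 1255 and 772 normalised counts with DMSO, iberdomide and mezigdomide. In the authors' deposited tables it fell with mezigdomide (log2 -0.36, adjusted p = 0.00872) and did not pass under iberdomide (log2 0.30, adjusted p = 0.0554). Its log2 difference of -0.66 passed narrowly with summed errors (adjusted p = 0.0316). With summed errors it did not pass once a trend with transcript length and GC content was removed (-0.59, adjusted p = 0.132). It passed in the shared-control test (adjusted p = 3.29e-06). It kept that call with the trend removed, an alternative added after the data were seen. RARA shares 17.9% of its exon bases with a gene on the opposite strand, and the library kit is not stated to keep strand, so its counts are uncertain.

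Of the liver X receptor targets, 11 of 15 listed genes were tested, and 2 were lower with mezigdomide (ABCA1 and MYLIP) and 0 higher with summed errors, with the same 2 in the shared-control test. Over all genes tested, 0.0615% were lower with summed errors and 0.205% in the shared-control test. The median log2 difference of the list was -0.16, beside -0.0011 over all genes, and all 11 values were below 0. Under iberdomide 7 of the 11 stood above DMSO and 0 below by the authors' deposited table, and under mezigdomide 6 above and 4 below. The receptor gene NR1H2 is counted among the 11 and among these 4 (log2 -0.23 with mezigdomide, adjusted p = 0.0421 in the authors' deposited table). Over all 19497 genes tested, 7.3% were above and 6.77% below DMSO with iberdomide in the authors' deposited tables, and 11.1% above and 11.4% below with mezigdomide. The targets other than ABCA1 and MYLIP did not pass either test. PLTP, which transfers phospholipids between lipoproteins, had rebuilt means of 185, 694 and 623 (DMSO, iberdomide, mezigdomide), a log2 difference of -0.15 with an interval of -0.42 to 0.12. The receptor gene NR1H3 itself had rebuilt means of 89.8, 427 and 397, with a log2 difference of -0.097 (interval -0.47 to 0.28). SMPDL3A, a phosphodiesterase of macrophages, differed by -0.035 (interval -0.34 to 0.28). APOE, the apolipoprotein of macrophage cholesterol export, was scarce, at 28.8, 91.6 and 56.2 normalised counts, and its log2 difference of -0.56 (interval -1.12 to -0.0085) did not pass either test (shared-control adjusted p = 0.281).

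The fatty acid synthesis list, 12 genes tested, had 1 member lower with mezigdomide (SREBF1) and 0 higher with summed errors, beside 0.0615% lower over all genes tested. Its median log2 difference was -0.20, with 4 values above 0 and 8 below. None of the enzymes passed with summed errors. The desaturase SCD, which passed neither test, had rebuilt means of 32998, 36629.9 and 29698 normalised counts with DMSO, iberdomide and mezigdomide (log2 difference -0.29, interval -0.56 to -0.013). The fatty acid synthase FASN, which also passed neither, had 27250.1, 28499.7 and 21092 (log2 difference -0.39, interval -0.77 to -0.01). ACSL3, which activates long-chain fatty acids, passed only in the shared-control test (-0.30, adjusted p = 0.00179).

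Most cholesterol synthesis genes were below DMSO with iberdomide, and 6 of them were higher with mezigdomide than with iberdomide in the shared-control test. By the tables the authors deposited, 21 of 25 tested members were below DMSO with iberdomide and 12 with mezigdomide, and 0 were above under either drug, beside 6.77% and 11.4% of all genes tested that were below. Their median log2 difference was 0.16, with 21 values above 0 and 4 below. No member passed with summed errors, and the 6 of 25 in the shared-control test stand beside 85 of 19497 genes overall (0.436%). They include HMGCS1, SQLE, CYP51A1, MSMO1 and SC5D, which span the pathway from an early step to the late sterol enzymes. HMGCS1, which makes hydroxymethylglutaryl-CoA, had rebuilt means of 7152 normalised counts with DMSO, 3594 with iberdomide and 5269 with mezigdomide (log2 difference 0.51, shared-control adjusted p = 0.0104). SQLE, squalene epoxidase, had 11655, 8612 and 11316 (0.38, adjusted p = 0.0132). The desaturase SC5D, with rebuilt means of 1571, 1228 and 1613, gave the smallest summed-error p of the list (0.38, adjusted p = 0.261 with summed errors and 0.000562 in the shared-control test). CYP51A1 shares 79.4% of its exon bases with a gene on its own strand and HMGCS1 15% with one on the opposite strand, so both are uncertain. The regulator SREBF2 of this pathway did not pass either test (0.037, interval -0.21 to 0.28).

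**Figure D2:**
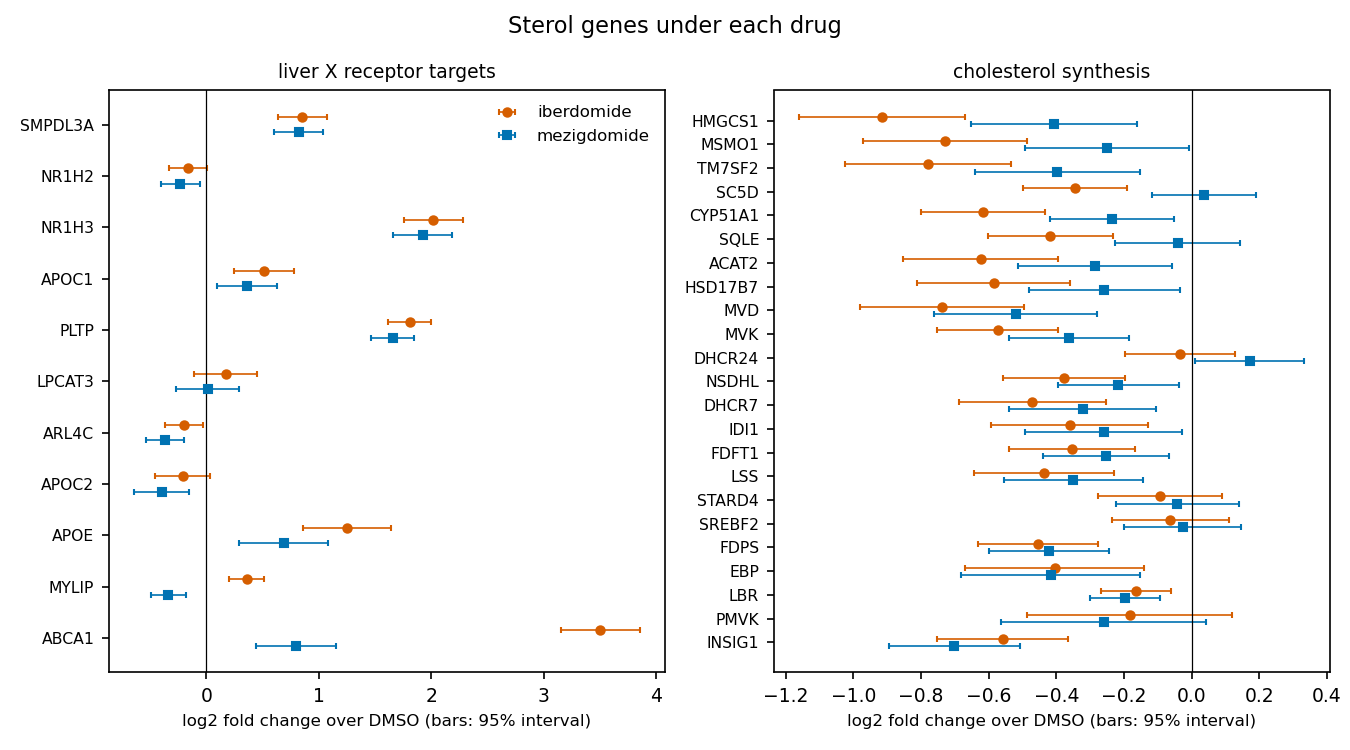
Log2 fold changes over DMSO in the authors' deposited tables for tested liver X receptor targets (left) and cholesterol synthesis genes (right), with bars of the 95% interval, iberdomide in orange circles and mezigdomide in blue squares. ABCA1 (3.50 against 0.80) and MYLIP (0.36 against -0.34) are the targets that passed, while HMGCS1 and SQLE lie nearer to 0 with mezigdomide.

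A further group fell with each drug, and further with mezigdomide. In 7 of the 12 genes lower with mezigdomide both contrasts were below DMSO. ZDHHC8, a palmitoyltransferase that attaches lipid anchors to proteins (chr22:20129456-20148007), had rebuilt means of 1695 normalised counts with DMSO, 1196 with iberdomide and 351 with mezigdomide. Its log2 fold changes in the authors' deposited tables were -0.46 (SE 0.13) and -2.06 (SE 0.13), and the log2 difference was -1.60 (SE 0.19, interval -1.96 to -1.23, adjusted p = 4.88e-14). LDHD, the mitochondrial D-lactate dehydrogenase (chr16:75111860-75116771), fell from 164 normalised counts to 62.6 with iberdomide and 13.8 with mezigdomide, a log2 difference of -1.45 (SE 0.26, interval -1.96 to -0.94, adjusted p = 9.07e-05). ZDHHC8 and LDHD, with ABCA1 and SREBF1, were the only 4 genes whose difference exceeded 0.25 when tested against that size with summed errors. The leukaemia fusion partner BCR, a regulator of small GTPases (chr22:23179704-23318037), had rebuilt means of 1202, 526 and 332 with DMSO, iberdomide and mezigdomide (log2 difference -0.62, interval -0.91 to -0.34, adjusted p = 0.0192). EPX, the eosinophil peroxidase (chr17:58192737-58205174), had 6478, 1797 and 1178 (log2 difference -0.58, interval -0.84 to -0.33, adjusted p = 0.00989). ENPP2, autotaxin, the secreted enzyme that makes lysophosphatidic acid, had 2996, 1076 and 760.1 (log2 difference -0.48, adjusted p = 0.0271). The remaining pair, OAF (1618, 1153 and 668, log2 difference -0.75, adjusted p = 0.000109) and GHDC (1329.8, 795 and 501, -0.64, adjusted p = 0.000222), stepped down in the same order. For EPX the other eosinophil, basophil and mast cell genes are given for context. Of 15 tested, EPX alone passed, beside 0.0615% of all genes tested that were lower with summed errors. The list's median log2 difference was -0.11. The summed rebuilt level of the tested members was 38090 normalised counts with DMSO, 30487 with iberdomide and 28187 with mezigdomide (31612, 28690.0 and 27009 without EPX). CLC, the eosinophil crystal protein, was at 146, 25.8 and 12.3 (-0.55, interval -1.14 to 0.04). In bulk RNA, fewer cells of a type and less RNA per cell cannot be told apart.

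**Figure D3:**
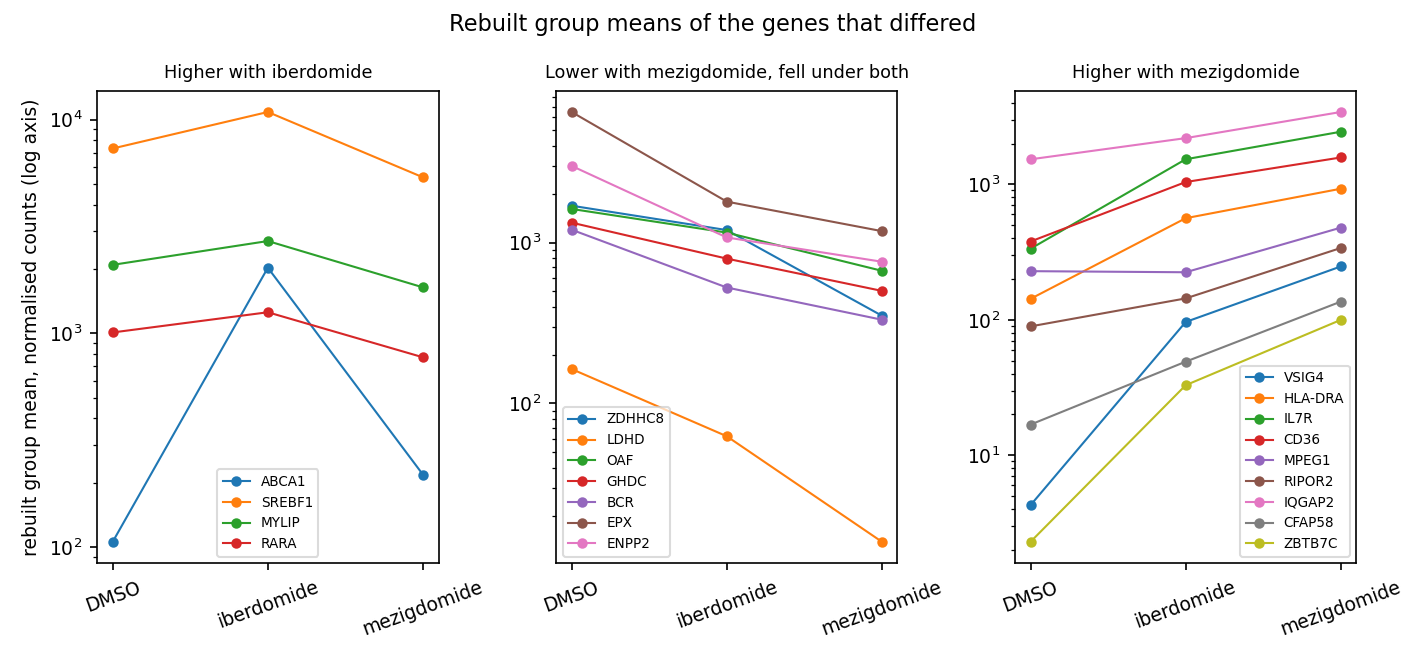
Rebuilt group means in normalised counts (log axis) for DMSO, iberdomide and mezigdomide, with 1 line per gene and no error bars, for 20 of the 21 genes that passed with summed errors. ABCA1 and SREBF1 peak with iberdomide (left), ZDHHC8 and LDHD step down most with mezigdomide (middle), and VSIG4, IL7R and HLA-DRA climb from DMSO to iberdomide to mezigdomide (right).

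Of the 9 genes higher with mezigdomide, 4 are known from phagocytes and antigen presentation. VSIG4, the complement receptor of tissue macrophages (chrX:66021738-66040125), had rebuilt means of 4.28 normalised counts with DMSO, 96.3 with iberdomide and 248 with mezigdomide, so that mezigdomide gave 2.57 times the iberdomide level. Its log2 difference was 1.26 (SE 0.27, interval 0.73 to 1.79, adjusted p = 0.00565). CD36, the scavenger receptor for oxidised lipoproteins (chr7:80369575-80679277), had 378, 1039 and 1578 in the same order, a log2 difference of 0.59 (interval 0.37 to 0.81, adjusted p = 0.000256). MPEG1, the pore-forming perforin-2 of macrophages (chr11:59208510-59212951), rose with mezigdomide and did not pass with iberdomide. Its rebuilt means were 228 with DMSO, 224 with iberdomide and 479 with mezigdomide. In the authors' deposited tables its log2 fold changes were -0.024 (adjusted p = 0.958) and 0.96 (adjusted p = 7e-10), and the log2 difference was 0.98 (interval 0.58 to 1.38, adjusted p = 0.0028). HLA-DRA, the invariant alpha chain of HLA-DR (chr6:32439842-32445046), had 143, 562 and 927 (log2 difference 0.69, interval 0.39 to 1.00, adjusted p = 0.00898).

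Of the monocyte and macrophage maturation list, 28 of 35 genes were tested: 2 were higher with mezigdomide with summed errors (CD36 and VSIG4) and 0 lower, and 7 were higher and 0 lower in the shared-control test. Over all genes tested, 0.0462% were higher with summed errors and 0.436% in the shared-control test. The median log2 difference of the list was 0.21, with 23 values above 0 and 5 below. The 5 that passed only in the shared-control test were SIGLEC1, CX3CR1, S100A9, CCR2 and CD209. SIGLEC1, the macrophage sialoadhesin, had rebuilt means of 8.58, 378 and 756 with DMSO, iberdomide and mezigdomide (log2 difference 0.94, adjusted p = 0.0728 with summed errors and 4.58e-12 in the shared-control test). The fractalkine receptor CX3CR1 had 193, 771 and 1219 (0.63, adjusted p = 1.44e-06 in that test). S100A9, the calprotectin subunit, had 83, 1546 and 2371 (0.59, adjusted p = 5.79e-06). The chemokine receptor CCR2 had 1697, 4176 and 4976 (0.25, adjusted p = 0.00234).

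Other members of that list did not pass either test, some of them far above DMSO under each drug. TREM2, the lipid-sensing receptor of macrophages, had rebuilt means of 167, 3865 and 4069, with a log2 difference of 0.073 (interval -0.18 to 0.33). CYBB, the catalytic subunit of the phagocyte oxidase, had 209.8, 1105 and 1097 (-0.01, interval -0.28 to 0.26). CD14 had 7.63, 63.8 and 48.8 (-0.30, interval -0.91 to 0.31), and the integrin ITGAM, which passed over DMSO under neither drug in the authors' deposited tables, had 618, 482 and 639.9 (0.36, interval -0.058 to 0.78). SPARC, the matrix glycoprotein with the largest rise over DMSO, had rebuilt means of 6.64, 4422 and 6202. Its log2 difference of 0.48 (interval 0.076 to 0.88) did not pass with summed errors and passed in the shared-control test (adjusted p = 8.29e-08), which takes out the error of the DMSO libraries and lowers the SE from 0.20 to 0.073.

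Genes of MHC class II presentation, which displays peptides to helper T cells, had 14 members tested. HLA-DRA was the 1 member higher with summed errors, 4 were higher in the shared-control test and 0 were lower in either, with a median log2 difference of 0.30 and 11 values above 0. The shares higher over all genes tested were 0.0462% with summed errors and 0.436% in the shared-control test. CIITA, the master regulator of the class, had rebuilt means of 115, 281 and 478 with DMSO, iberdomide and mezigdomide (log2 difference 0.68, shared-control adjusted p = 0.00368). CD74, the invariant chain, did not pass over DMSO under either drug in the authors' deposited tables and was at 3608, 3355 and 3979 (0.24, adjusted p = 0.0157). The beta chain HLA-DRB1 had 47.3, 140.1 and 225 (0.63, adjusted p = 0.00188), but its reads can be shared with near-identical copies, and CIITA shares 11.5% of its exon bases with a gene on its own strand, so both are uncertain. MHC class I genes, which every nucleated cell uses, had 19 tested, 0 called by either test and a median of -0.027. Their member with the smallest p was HLA-G, at -0.65 (interval -1.19 to -0.10), which shares 25.8% of its exon bases with a gene on the opposite strand.

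The other genes higher with mezigdomide have varied roles. IL7R, the interleukin-7 receptor chain (chr5:35852695-35879603), had rebuilt means of 335 normalised counts with DMSO, 1530.3 with iberdomide and 2443 with mezigdomide (log2 difference 0.65, SE 0.13, interval 0.41 to 0.90, adjusted p = 0.000503). It was the 1 called member of 10 lymphoid markers tested, beside 0.0462% of all genes tested that were higher with summed errors. The median of these markers was -0.0005. Their summed rebuilt level was 2332, 2896 and 3881 with DMSO, iberdomide and mezigdomide with IL7R included, and 1998, 1366 and 1437 without it, so the higher sums with the drugs rest on IL7R. IQGAP2, a scaffold that links GTPases to actin (chr5:76403249-76708132), had 1529, 2192 and 3418 (log2 difference 0.62, interval 0.37 to 0.86, adjusted p = 0.00115). RIPOR2, a regulator of cell polarity and migration (chr6:24804281-25042170), had 89.3, 144 and 339 (1.07, interval 0.61 to 1.54, adjusted p = 0.00766). CFAP58, a cilium and flagellum protein (chr10:104353764-104455090), had 16.8, 49.1 and 136 (1.26, adjusted p = 0.00753). ZBTB7C, a zinc-finger protein, was the least abundant, at 2.3, 32.9 and 99.8 (1.28, interval 0.67 to 1.90, adjusted p = 0.0377), and did not pass when no gene was left out for low counts (adjusted p = 0.0682). In 8 of the 9 genes higher with mezigdomide both contrasts were above DMSO, and MPEG1 was the other.

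**Figure D4:**
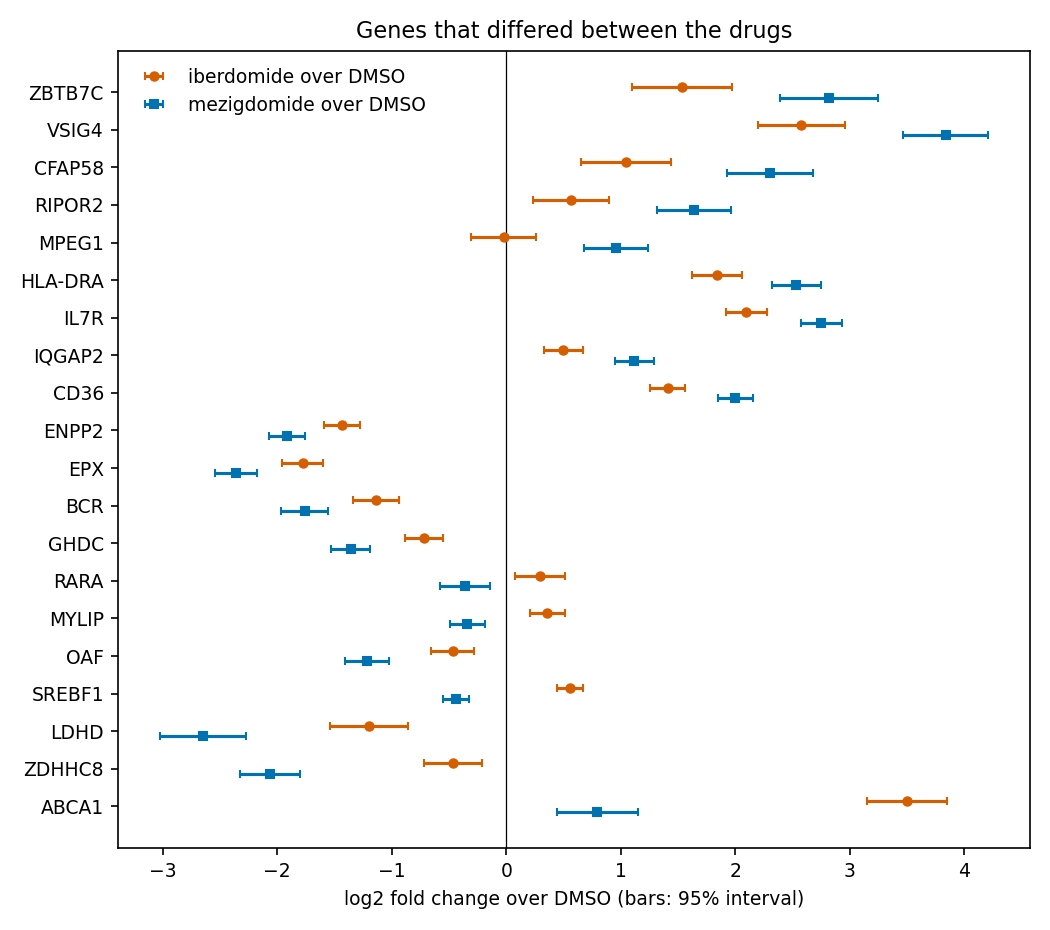
Log2 fold changes over DMSO in the authors' deposited tables (bars: 95% interval) for 20 of the 21 genes that passed with summed errors, iberdomide in orange circles and mezigdomide in blue squares, ordered by their difference. SREBF1, MYLIP and RARA lie on opposite sides of 0, ABCA1 lies far higher with iberdomide, and MPEG1 lies at 0 with iberdomide (-0.024) and above it with mezigdomide (0.96).

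No component of the drugs' direct machinery passed the test between the drugs. The list of cereblon ligase components and substrates had 20 members tested, 0 called by either test, and a median log2 difference of -7.9e-05. CRBN, cereblon itself, had rebuilt means of 810.1, 827 and 774 (log2 difference -0.093, interval -0.30 to 0.12). IKZF1, the haematopoietic transcription factor that both drugs degrade, had 8059, 14119.9 and 16515 normalised counts with DMSO, iberdomide and mezigdomide. It was above DMSO under each drug in the authors' deposited tables, with a log2 difference of 0.21 (interval -0.077 to 0.51). Its interval in the shared-control test was 0.0082 to 0.42, and it did not pass that test after adjustment (adjusted p = 0.999). IKZF2 had 46.8, 168 and 208 (0.27, interval -0.21 to 0.75), and the zinc-finger substrate ZFP91 differed by 0.07 (interval -0.16 to 0.30), with 32.3% of its exon bases shared with a gene on its own strand. IKZF3 was barely expressed, with a mean of 3.61 normalised counts, so a difference was not detectable at this depth. The translation termination factor GSPT1, a substrate of some cereblon modulators, had 7472, 7108 and 7104 (-0.00069, interval -0.17 to 0.16), and 25 genes of nonsense-mediated decay and termination had 0 called by either test and a median of -0.0007. The protein levels, on which these drugs act, were not measured.

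Targets of KMT2A fusions and menin, the programme that maintains this leukaemia, had 34 members tested, 0 called by either test and a median of 0.012. The leukaemic regulators did not pass: HOXA9 differed by -0.067 (interval -0.31 to 0.17), MEIS1 by 0.029 (interval -0.23 to 0.29), PBX3 by -0.05 (interval -0.20 to 0.10) and FLT3 by 0.11 (interval -0.086 to 0.31). HOXA9 shares 15.9% of its exon bases with another gene of its strand. MYC, with rebuilt means of 12299.6, 14116 and 14430.4, differed by 0.031 (interval -0.15 to 0.21). MYC and ribosome biogenesis genes (32 tested, median -0.053), stem and progenitor regulators (16, -0.024), BCL2 family genes (17, -0.0018) and AML surface antigens and immune ligands (27, 0.017) had 0 called by either test. Their members of smallest p were ODC1 (-0.20, interval -0.48 to 0.082), GATA2 (-0.29, -0.55 to -0.031), PMAIP1 (-0.35, -0.70 to 0.0097) and CD38 (0.31, 0.062 to 0.56).

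S phase genes all had values below 0, few of which passed. All 40 genes of S phase and DNA replication had a negative log2 difference, with a median of -0.13, but 0 passed with summed errors and 2 passed in the shared-control test, beside 40 of 19497 genes lower overall (0.205%). E2F2, a transcription factor of S phase entry, had rebuilt means of 708, 423 and 305 with DMSO, iberdomide and mezigdomide (-0.44, adjusted p = 0.00794 in that test), and CHAF1B, a histone chaperone of replication, had 943, 904 and 726 (-0.31, adjusted p = 0.00878). By the tables the authors deposited, 9 of the 40 were below DMSO with iberdomide and 28 with mezigdomide, and 0 were above. Over all genes tested the share below DMSO also went from 6.77% with iberdomide to 11.4% with mezigdomide. These genes are co-regulated and share libraries, so their common sign is not 40 separate observations. G2 and mitosis genes (34 tested) had 0 called and a median of -0.073, and G1 cyclins, CDKs and CDK inhibitors (15 tested) had 0 called and a median of -0.042. AP-1 and EGR early response genes (32 tested) had 0 called by either test and a median of -0.16, with ETV4, a target of the MAP kinase pathway, nearest to passing (-0.41, shared-control adjusted p = 0.0556). EGR1, the serum-responsive zinc-finger factor, had rebuilt means of 1011, 787 and 511 with a wide interval (-0.39, -1.01 to 0.23).

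Stress and defence programmes had few called members. Integrated stress response genes had 33 tested, of which 23 were below DMSO and 1 above under each drug by the authors' deposited tables, beside the 6.77% and 11.4% of all genes below. Of the 33, 0 differed between the drugs by either test, and their median log2 difference was -0.026. ATF4, their driver, had rebuilt means of 8914, 7334 and 6489 (-0.17, interval -0.42 to 0.086). NF-kB feedback and cytokine genes (23 tested, median -0.046), proteasome and heat shock genes (39, -0.065), glycolysis and hypoxia genes (30, -0.063), iron and haem genes (17, -0.013) and erythroid and megakaryocyte markers (11, -0.030) had 0 called by either test. The members of smallest p, chosen by rule, were NFKBIZ (-0.35, interval -0.80 to 0.10), the chaperone partner BAG3 (0.14, -0.13 to 0.40), PFKL (-0.12, -0.29 to 0.055), haem oxygenase HMOX1 (0.41, -0.14 to 0.96) and GP1BB (-0.33, -0.81 to 0.14, all its exon bases shared with a gene on its own strand), and in the stress list NUPR1 (0.71, 0.083 to 1.33). Type I interferon response genes (43 tested, median 0.12) had 0 called with summed errors and 1 in the shared-control test, the antiviral TRIM22 (1246, 2215 and 2733, 0.30, adjusted p = 0.0101), which shares 10.7% of its exon bases with a gene on its own strand and is uncertain. Granule and neutrophil genes (17 tested, median 0.13) likewise had 1 in that test, the bactericidal protein BPI (2288, 1622 and 2014, 0.30, adjusted p = 0.0167). The other single members were TP53INP1 among 28 p53 targets (median 0.080, 0.37, adjusted p = 0.0378, not called once the GC and length trend was removed as well), the ganglioside activator GM2A among 38 lysosome genes (median 0.048, 0.32, adjusted p = 0.00138) and SIGLEC1 among 11 SIGLEC family genes (median 0.10). Complement genes (21 tested, median 0.13) had VSIG4 as their 1 called member by each test. Retinoid genes (11 tested, median 0.060) had RARA lower with summed errors and, in the shared-control test, RARA lower and the transglutaminase TGM2 higher (67.4, 189 and 394, 0.91, adjusted p = 5.77e-05). Myeloid lineage transcription factors (21 tested, median 0.0030) had RARA as their 1 called member. Over all genes tested, 0.0462% were higher and 0.0615% lower with summed errors. In the shared-control test the shares were 0.436% higher and 0.205% lower.

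**Figure D5:**
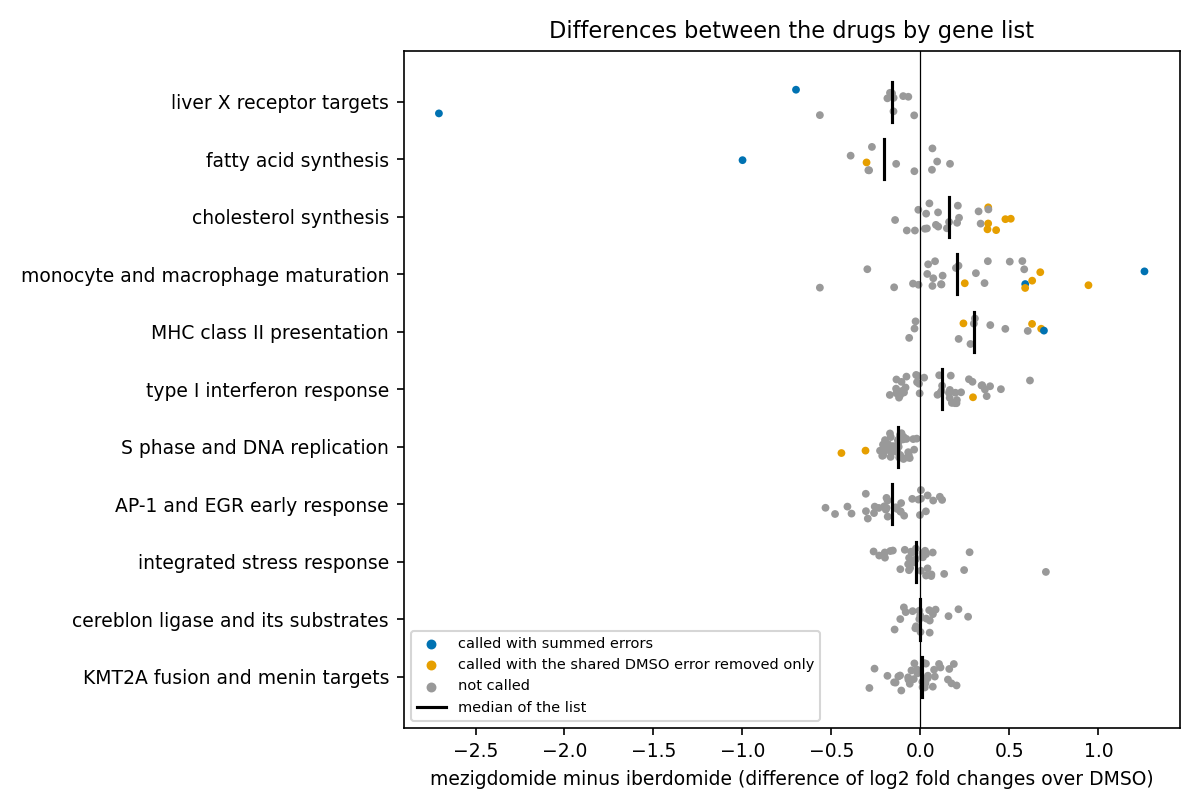
Log2 difference between the drugs for each tested member of selected gene lists, 1 point per gene, with the list's median as a black bar. Blue points passed with summed errors and orange points only in the shared-control test. The medians of MHC class II (0.30), monocyte and macrophage (0.21) and cholesterol synthesis genes (0.16) lie above 0, and those of liver X receptor targets (-0.16) and fatty acid synthesis genes (-0.20) below it.

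Across the 33 lists, 732 genes were tested, 9 of them passed with summed errors and 31 in the shared-control test. Over all 19497 genes tested, 21 (0.108%) passed with summed errors and 125 (0.641%) in the shared-control test. The lists were chosen with earlier results of these data known, so their larger share is not a test of the lists. With summed errors 9 lists had a called member and 24 had none. Removing a trend with transcript length and GC content together with the shared error left 127 genes (89 higher and 38 lower with mezigdomide), of which 114 were among the 125.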

How the data were processed

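RNA of 9 MOLM13 libraries, 3 per group, was poly(A) selected, prepared with a NEBNext Ultra RNA kit and read as 37 bp pairs, per the labels' protocols. One characteristic spells the mezigdomide code differently from the titles, and the titles were followed. For the authors' own steps the submitters' processing notes list GRCh38 (hg38), DESeq2, HTSeq 0.6.1pl, STAR 2.7.5a, SAMtools 1.95, Picard 2.9.4 and bcl2fastq 2.20.0.422, without role or order. Neither the annotation release nor how reads were counted is given in the sources used here. Depths of about 20900000 to 25300000 counted reads were recovered from the means of genes taken to have 1 read, and are approximate.

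The authors deposited 2 DESeq2 tables of 59699 rows. Per the file headers, they hold a mean signal (normalised count over all libraries), a log2 fold change and its SE on the log2 scale, a Wald score and p-values before and after adjustment. The log2 fold changes deposited are shrunk. 44 second copies on chromosome Y and 92 rows naming no gene (3.39e-05% of the signal) were left out.

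The difference was tested with a two-sided Wald test, Benjamini-Hochberg adjusted over 19497 genes, its error either summed (main) or with the covariance rebuilt. The rebuilding refits the model behind the authors' DESeq2 tables with a prior SD of 0.329 and a gene-wise dispersion chosen to return both deposited SEs. It missed them by 0.133% at the median and 0.538% at the 99th percentile, and was tested on simulated data. Intervals are 95%. Coordinates, exon sharing, GC content and length are from GENCODE on GRCh38. Python 3.11.15, numpy 2.4.6, scipy 1.17.1 and pandas 2.3.3 were used. The alternatives were an error correlation of 0.5, other filters, centring, protein-coding genes, removal of a trend with GC and length, a threshold of 0.01 and a test against 0.25.

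Genes were named by rule: called genes with a mean of at least 50 (up to 12 a direction), up to 4 called members of each list or else the member of smallest p, genes passing over DMSO with opposite signs, and a fixed set of drug targets and leukaemia genes. Genes outside it (ZBTB7C, list members shown for context, and those called only in the shared-control test) were chosen after their values were seen. Members and the 33 lists were chosen with earlier results of these data known. Some genes that were tested and counted are not reported here by name.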

Additional observations from a re-analysis of the deposited data

How the results depend on the processing

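The count of differing genes, 21 (9 higher and 12 lower with mezigdomide, 9 of them in lists), depended mainly on the error. It was 118 (75 and 43, 30 in lists) with an error correlation of 0.5, and 125 (85 and 40, 31 in lists) with the covariance rebuilt, which takes out the error of the shared DMSO libraries. It was 4 (0 higher and 4 lower, 2 in lists) when tested against a difference of 0.25. Of 2 alternatives added after the data were seen, the rebuilt covariance with the GC and length trend removed gave 127 (89 and 38, 32 in lists), and the rebuilt covariance tested against 0.25 gave 23 (14 and 9). The other alternatives gave 17 to 24. Only centring and the removal of the GC and length trend alter the log2 difference itself, and under these no called gene changed sign. The remaining alternatives change the error, the genes or the threshold, so a sign could not change there. With summed errors, RARA lost its call with the GC and length trend removed, and RARA and ZBTB7C with no filter. BCR, ENPP2, RARA and ZBTB7C lost theirs at an adjusted p under 0.01, and 17 genes lost theirs against 0.25 with summed errors. No paired analysis was possible because the tables hold no value per library, so neither a replicate block nor leaving out a library was run. Depth limits low genes: the median SE in the shared-control test was 0.152 over all genes and 0.106 at a mean of at least 100.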

Other observations

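The genes named here passed only in the shared-control test. They were chosen after their values were seen. The Src-family kinase FGR of myeloid cells had rebuilt means of 214, 537 and 874 normalised counts with DMSO, iberdomide and mezigdomide (log2 difference 0.66, adjusted p = 3.29e-06). F13A1, the coagulation factor chain of monocytes, had 926, 8159 and 10994 (0.41, adjusted p = 0.0037). NRP1, a semaphorin and growth factor co-receptor, had 66.9, 609.7 and 992 (0.67, adjusted p = 1.2e-07). RNASE1, a secreted ribonuclease, had 5.61, 118 and 256 (1.00, adjusted p = 3.29e-07), and CYP19A1, aromatase, had 2.26, 70.7 and 170.4 (0.98, adjusted p = 0.00122). CYP27A1, the sterol hydroxylase that makes an oxysterol, was lowest with iberdomide, at 304, 235 and 351 (0.53, adjusted p = 0.0167).

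Lower with mezigdomide in the same test were RNF145, a sterol-responsive ubiquitin ligase (1239, 1429 and 1086, -0.38, adjusted p = 0.000277), and PTGER4, a prostaglandin E2 receptor (772, 1127 and 805, -0.46, adjusted p = 0.014). NPDC1 was above DMSO under each drug but less so with mezigdomide (38.2, 177 and 91.3, -0.86, adjusted p = 4.06e-06). LRFN3, a neuronal adhesion molecule, stepped down from 361 to 49.1 and 18.6 (-0.93, adjusted p = 0.00052), and the lysosomal membrane protein SIDT2 from 913 to 236 and 128 (-0.75, adjusted p = 0.000796). The pioneer factor FOXA1 went from 274 to 59.8 and 29.1 (-0.75, adjusted p = 0.014), and the mitochondrial sulfur dioxygenase ETHE1 from 657 to 535 and 335 (-0.62, adjusted p = 0.000346), the latter with 14.8% of its exon bases shared with a gene on the opposite strand.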
